A study of Sus scrofa with 22 samples.

Results

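Hampshire pigs were compared between thick and thin subcutaneous fat, the fat layer under the skin, by sequencing their microRNAs. The members are the 7 of 22 libraries of the series whose source label names the Hampshire breed, 5 of them of thick and 2 of thin fat. All 7 came from female pigs of 6 months, and the other 15 libraries came from Pietrain and Large White pigs of the same sex and age. Tissue was kept in RNAlater after slaughter, and RNA with an integrity number above 7.5 was made into small RNA libraries. The labels give neither a treatment nor the measure or limit by which fat was classed, and the tag that repeats the fat class is called loin weight. No label pairs a thick with a thin library, and replicate numbers below only name libraries. P-values therefore measure the spread between these libraries, and with 2 thin libraries the value of each library is given for the leading miRNAs.

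MicroRNAs (miRNAs) are short RNAs that guide a silencing complex to matching messenger RNAs, mostly through the seed, bases 2 to 8 from the 5′ end. In fat they act on the commitment of precursor cells, lipid storage and heat production, and miRNAs of the miR-143, miR-148, miR-30 and miR-193 families are known from adipocytes. Fat tissue also holds vessels, nerves and blood, whose own miRNAs are read in the same library. In such bulk samples fewer cells of a type and less RNA per cell cannot be told apart.

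The sequences on which the results turn are the most abundant deposited sequences of miRNAs with the smallest p-values, printed 5′ to 3′ with the seed in capitals. Those lower in thick fat were the following.
miR-9: uCUUUGGUuaucuagcuguaug
miR-143-3p: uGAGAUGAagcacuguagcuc
miR-100: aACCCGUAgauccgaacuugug
miR-24-3p: uGGCUCAGuucagcaggaac
miR-381-3p: uAUACAAGgacaagcucucugu
Those higher in thick fat and counted in all 7 libraries were the following.
miR-486: uCCUGUACugagcugccccgagu
miR-193a-5p: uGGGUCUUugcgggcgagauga
let-7d-3p: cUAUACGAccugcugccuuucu
The last set shows miRNAs that were counted in some Hampshire libraries and at 0 in others.
miR-145-5p: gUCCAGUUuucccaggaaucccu
miR-145-3p: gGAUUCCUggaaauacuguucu
miR-142-5p: cCCAUAAAguagaaagcacu
These shares of a miRNA's reads matched the sequence shown: 38.0% for miR-9, 39.3% for miR-143-3p, 37.2% for miR-486 and 66.4% for miR-145-5p. The remaining reads of miR-9, miR-143-3p and miR-486 were mostly of longer or shorter ends, and those of miR-145-5p mostly differed by 1 base. No 2 of these sequences share a seed.

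No miRNA passed the test between thick and thin Hampshire fat. Counts were summed over all sequences of a mature miRNA name, and edgeR's quasi-likelihood test called 0 of 172 names (0%) at an adjusted p under 0.05. An unadjusted p under 0.05 was reached by 5 names (2.91%), of which miR-9, miR-143-3p and miR-100 were lower and miR-486 and miR-193a-5p higher in thick fat. All 5 thick libraries lay above both thin libraries for 6 names (3.49%) and below both for 8 names (4.65%). Among the names below both, miR-4331-5p and miR-199b-5p were each at 0 in 1 library. Whether these shares exceed those of libraries grouped without regard to fat class was not tested. Lack of overlap, given below for single names, is therefore a description only. limma-voom also called 0, with 5 at an unadjusted p under 0.05, and DESeq2 called 3 of 168 (1.79%), miR-9, miR-145-5p and miR-200b. The fitted log2 fold changes, thick minus thin, were positive for 87 names and negative for 85, with a median of 0.02. The 95% interval of a name reached 1.33 log2 units to either side at the median, and it lay within 1 log2 unit of 0 for 27 names.

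**Figure D1:**
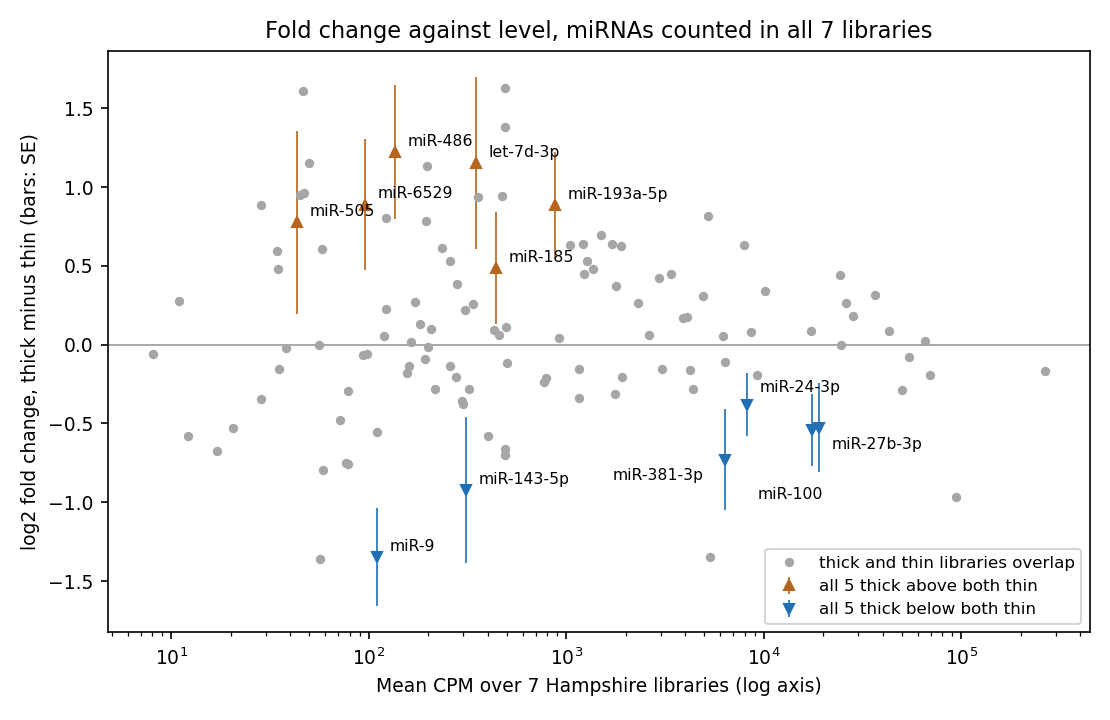
Each point is 1 of the 120 miRNAs counted in all 7 Hampshire libraries, by its mean CPM (log axis) and its fitted log2 fold change, thick minus thin; bars are standard errors and are drawn for the names whose thick and thin libraries do not overlap. Points lie on both sides of 0, with miR-9 at -1.35 lowest and miR-486 at 1.22 highest among the names without overlap.

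Depth differed between the libraries. The Hampshire libraries held 431542 to 2315501 reads, against 431542 to 3137757 over the series, and counted 142 to 186 names each. The shallowest was thick fat replicate 2 and the deepest thick fat replicate 3. Between 70.5% and 77.7% of reads belonged to the 10 most abundant names of a library. Levels are given as CPM, read counts set to a common library total and scaled by TMM within the 7 libraries, with no scaling for length, since all sequences had 17 to 25 nt. No library listed a sequence with 1 to 5 reads, so a 0 for 1 sequence may hide as many as 5 reads. A 0 for a name, which sums its sequences, may hide more, and for miR-429 it hides reads listed under another name, given with the zeros below.

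miR-9, best known from the nervous system, had the smallest p of all names. In thick fat it was at 80.0, 74.4, 73.0, 80.7 and 73.9 CPM in replicates 1 to 5, and in thin fat at 243 and 147 CPM. The 5 thick libraries lay close together and both thin libraries lay above them, with thin fat replicate 1 the higher. The log2 fold change was -1.35 ± 0.31 (SE, 95% interval -2.07 to -0.62), lower in 5 of 5 thick libraries, and did not pass (edgeR adjusted p = 0.515). DESeq2 gave -1.37 ± 0.37 with an adjusted p of 0.0139, and over all alternatives the adjusted p ran from 0.0139 to 0.997. Leaving out thin fat replicate 1 moved the log2 fold change to -0.94, and leaving out thin fat replicate 2 moved it to -1.67. These levels rest on few reads, 33 in thick fat replicate 2 and 70 to 215 in the other thick libraries, against 299 and 209 in thin fat.

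The forms of miR-9 varied between libraries. The sequence printed above was at 24.3, 29.3, 27.9, 33.4 and 53.9 CPM in thick fat replicates 1 to 5 and at 83.5 and 49.2 CPM in thin fat, so thick fat replicate 5 lay above thin fat replicate 2. A form with 1 more base at the 3′ end was about as frequent.
miR-9, longer form: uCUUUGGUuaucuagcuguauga
It had 36, 20, 99 and 37 reads in thick fat replicates 1 to 4, 0 in thick fat replicate 5, and 103 and 75 in thin fat. Extended forms made up 43.5% to 60.6% of miR-9 reads in 6 libraries and 0% in thick fat replicate 5. The total of 73.9 CPM in thick fat replicate 5, close to the other thick libraries, thus holds none of these forms. Its place below both thin libraries depends on that, and why the forms are at 0 there was not tested. With the most abundant sequence of each name alone, miR-9 had a log2 fold change of -0.94. With sequences counted in all 7 libraries it also had -0.94. For miR-9 only the printed sequence was counted in all 7, so both values rest on the same reads.

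miR-143-3p, an abundant miRNA of adipocytes and of smooth muscle, was the second most abundant name. It was at 65635, 72411, 44495, 77902 and 108220 CPM in thick fat replicates 1 to 5, and at 180693 and 107825 CPM in thin fat. Thin fat replicate 1 stood well above all others, and thick fat replicate 5 lay just above thin fat replicate 2, so the groups overlapped. The log2 fold change was -0.97 ± 0.35 (95% interval -1.78 to -0.16), with all 5 thick libraries below the thin mean, and did not pass (edgeR adjusted p = 0.894). Without thin fat replicate 1 it was -0.55, and without thin fat replicate 2 it was -1.29. Its passenger arm miR-143-5p was at 177, 324, 128, 212 and 400.3 CPM in thick and 524 and 416 CPM in thin fat, with no overlap (log2 fold change -0.92 ± 0.47, edgeR adjusted p = 0.894). Both arms were lowest in thick fat replicate 3 and highest in thin fat replicate 1. The log2 ratio of the 3p to the 5p arm was 8.28 ± 0.32 (SD, n = 5) in thick fat, and 8.43 and 8.02 in the thin libraries.

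miR-100, which shares the seed ACCCGUA with miR-99a, was at 17059, 16393, 14140, 16069 and 14109 CPM in thick fat and at 27966 and 17304 CPM in thin fat. The groups did not overlap, but thin fat replicate 2 lay only just above thick fat replicate 1. Its log2 fold change was -0.54 ± 0.23 (edgeR adjusted p = 0.894), and it was -0.15 without thin fat replicate 1 and -0.85 without thin fat replicate 2. miR-99a was at 70273, 58006, 64055, 66435 and 73033 CPM in thick fat and at 67036 and 84681 CPM in thin fat, which overlapped. Its log2 fold change of -0.19 ± 0.19 was -0.015 without thin fat replicate 2 and -0.35 without thin fat replicate 1.

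miR-24-3p and miR-27b-3p belong to the miR-23, miR-24 and miR-27 clusters, and miR-27 is known to hold back adipocyte formation. miR-24-3p was at 7574, 8249, 6146, 7348 and 8443 CPM in thick fat and at 9984 and 9693 CPM in thin fat, with a log2 fold change of -0.38 ± 0.20 (edgeR adjusted p = 0.894). miR-27b-3p was at 14918, 19694, 10754, 17623 and 21261 CPM in thick and 26301 and 22296 CPM in thin fat, with -0.53 ± 0.28 (edgeR adjusted p = 0.894). For both, every thick library lay below both thin libraries, and thick fat replicate 3 was the lowest. Of the miR-23, miR-24 and miR-27 clusters 9 members were tested and 0 called, with 7 negative and 2 positive log2 fold changes. Their median was -0.38 beside 0.02 over all names. Over the 7 members counted in all libraries it was -0.28, beside 0.06 over all names so counted. miR-23a, at 0.17 ± 0.50, and miR-27a, at 0.06 ± 0.27, were the positive ones. Among the negative ones, miR-23b-5p, miR-27a-5p and miR-27b-5p were at no more than 27.6 CPM in any library.

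miR-381-3p belongs to the imprinted DLK1-DIO3 cluster, whose host region carries the adipogenesis regulator DLK1. It was at 6720, 4570, 3447, 4732 and 7253 CPM in thick and 7685 and 10037 CPM in thin fat, with no overlap. The log2 fold change was -0.73 ± 0.32 (edgeR adjusted p = 0.894). All reads of miR-381-3p were of the 1 sequence printed above, where miR-24-3p, at a like level, had 75 sequences. The reason for this was not tested. Of the 4 cluster members tested all were negative, with a median of -0.54 and 0 called. miR-127 had -0.31 ± 0.31, with 1256 to 2464 CPM in thick and 2119 and 1958 CPM in thin fat, and -0.49 without thick fat replicate 1, its highest library. Of the other members tested, miR-136 and miR-493-5p were counted at no more than 21.5 CPM in any library.

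Among the other names on the lower side, miR-182, a miRNA of epithelia and sensory cells, was at 33.7, 18.0, 19.0, 77.5 and 45.4 CPM in thick and 69.8 and 130 CPM in thin fat. Thick fat replicate 4 overlapped with thin fat, and the log2 fold change was -1.36 ± 0.66 (edgeR adjusted p = 0.894). It was -0.85 without thin fat replicate 2. miR-338-5p rested on 1 library, at 144 CPM in thin fat replicate 1, at 0 in thin fat replicate 2 and at 0 to 12.7 CPM in thick fat. Its fitted log2 fold change of -3.35 turned to 6.22 without thin fat replicate 1.

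**Figure D2:**
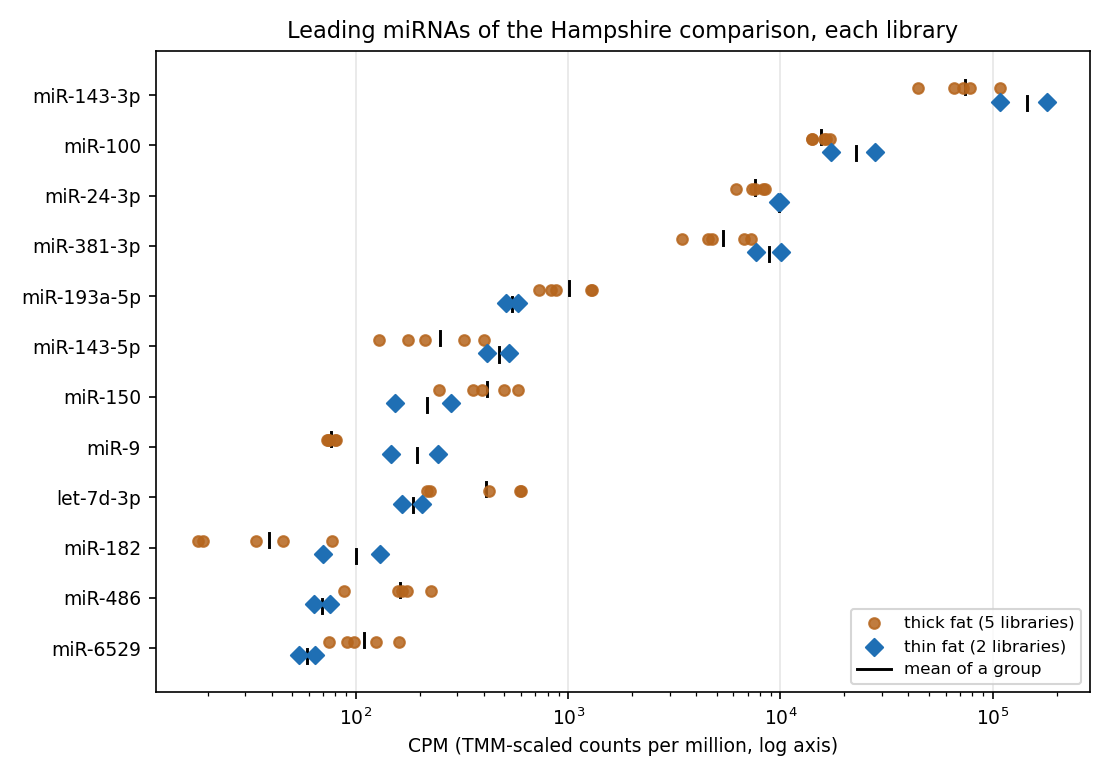
CPM (log axis) in each of the 7 Hampshire libraries for 12 leading miRNAs counted in all of them; circles are thick fat, diamonds thin fat, and black bars the mean of a group. The thick libraries of miR-9 sit between 73.0 and 80.7 CPM, below both thin libraries, while 1 thick library of miR-143-3p reaches the lower thin one.

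On the higher side, miR-486, a miRNA of red blood cells and muscle, had the smallest p. It was at 164, 87.9, 173, 226 and 157 CPM in thick fat and at 75.4 and 63.2 CPM in thin fat. The groups did not overlap, and thick fat replicate 2, with the fewest reads, was the nearest to thin fat. The log2 fold change was 1.22 ± 0.43 (95% interval 0.22 to 2.22), higher in 5 of 5 thick libraries, and did not pass (edgeR adjusted p = 0.894). Over the alternatives its adjusted p ran from 0.190 to 0.997, and its log2 fold change stayed between 1.07 and 1.37 as each library was left out.

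The other red blood cell markers overlapped between thick and thin fat. miR-451 was at 293, 426, 342, 1421 and 1307 CPM in thick and at 292 and 1461 CPM in thin fat, with a log2 fold change of -0.21 ± 0.86 that turned to 1.38 without thin fat replicate 2. miR-144 was at 18.0 to 57.0 CPM in thick fat and at 6.49 and 28.8 CPM in thin fat. The summed level of the 3 red blood cell markers ran from 475 to 1704 CPM in thick fat and was 374 and 1553 CPM in thin fat. The skeletal muscle marker miR-206, at 67.6 to 1344 CPM in thick fat and 302 and 155 CPM in thin fat, and miR-133a-3p, at 111 to 852 and 251 and 320 CPM, overlapped between the groups. The part of blood or muscle in the miR-486 difference was not tested.

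miR-193a-5p comes from the locus of miR-193a and is on the list of thermogenic adipocyte miRNAs used below. It was at 1298, 730.1, 1287, 875 and 830.1 CPM in thick fat and at 510.2 and 579 CPM in thin fat, with no overlap. Thick fat replicates 1 and 3 were the highest. The log2 fold change was 0.88 ± 0.34 (95% interval 0.08 to 1.69), higher in 5 of 5 thick libraries (edgeR adjusted p = 0.894). Its other arm, miR-193a-3p, was counted at far lower levels, with 0 in thick fat replicate 2 and thin fat replicate 1. The log2 fold change of miR-193a-3p was -0.26 ± 1.91.

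let-7d-3p, the passenger strand of let-7d, was at 596, 421, 600.5, 215 and 223 CPM in thick fat and at 165 and 204 CPM in thin fat. Thick fat replicates 4 and 5 lay just above thin fat, and replicates 1 to 3 far above it. The log2 fold change was 1.15 ± 0.54 (edgeR adjusted p = 0.894), and without thick fat replicates 1 to 3, a comparison chosen after seeing the data, it was 0.21. The guide strand let-7d-5p was at 1279 to 1543 CPM in thick fat and at 1510 and 609 CPM in thin fat, and overlapped.

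miR-6529 was at 98.1, 160, 124, 90.4 and 75.0 CPM in thick and 64.1 and 54.1 CPM in thin fat, with no overlap (log2 fold change 0.89 ± 0.42, edgeR adjusted p = 0.894). miR-150, a miRNA of lymphocytes, was at 391, 579, 357, 498 and 247 CPM in thick and 152 and 281 CPM in thin fat, where thick fat replicate 5 overlapped (log2 fold change 0.93 ± 0.45, edgeR adjusted p = 0.894). The miR-150 value was 0.56 without thin fat replicate 1 and 1.44 without thin fat replicate 2. miR-185, at 0.49 ± 0.35, and miR-505, at 0.78 ± 0.58, were the remaining names with all 5 thick libraries above both thin ones. They were named after their values were seen.

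Of the 10 most abundant names, miR-143-3p had a log2 fold change near -1, and the other 9 had values between -0.29 and 0.32. miR-148a-3p, which favours adipocyte formation, was at 183600 to 295595 CPM in thick fat and at 223614 and 353099 CPM in thin fat, with a log2 fold change of -0.17 ± 0.26 (95% interval -0.79 to 0.45). miR-26a, at 54954 to 80832 CPM in thick and 64558 and 64743 CPM in thin fat, had 0.02 ± 0.22. miR-10b, at 49814 to 56493 CPM in thick and 52840 and 59427 CPM in thin fat, had -0.08 ± 0.17. The groups overlapped for these 3, and also for miR-30a-5p at 0.26 ± 0.32, miR-21 at 0.18 ± 0.53 and let-7i-5p at -0.29 ± 0.41. let-7a was at 34500 to 47991 CPM in thick fat and at 48280 and 14172 CPM in thin fat, so the 2 thin libraries lay on either side of all thick ones. Its log2 fold change of 0.32 ± 0.43 turned to -0.31 without thin fat replicate 2. let-7c was also lowest in thin fat replicate 2, at 13380 CPM against 22864 to 33182 CPM in thick fat and 25434 CPM in thin fat replicate 1.

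Lists of miRNAs with known roles in adipocytes held members on both sides of 0, among them miR-182 at -1.36, miR-143-3p at -0.97 and miR-193a-5p at 0.88. Of the adipogenesis promoters 16 were tested and 0 called, with a median log2 fold change of 0.06, 11 positive and 5 negative. Of the repressors 12 were tested and 0 called, with a median of 0.09, 8 positive and 4 negative. The thermogenic list had 14 tested, 0 called and a median of -0.04, with miR-378 at 0.34 ± 0.29 and miR-30c-5p at 0.18 ± 0.28. The list of lipid and cholesterol metabolism had 11 tested, 0 called and a median of -0.34, and of those counted in all libraries 7 were left with a median of -0.17. Members of these lists lie in more than 1 list.

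In the families and clusters 0 were called as well. The let-7 family had a median of 0.28 over 9 tested, of which 7 were positive, the miR-30 family 0.18 over 3, the miR-10, miR-99 and miR-100 family -0.08 over 7, and the miR-17-92 cluster and its paralogs -0.02 over 6. miR-92a of that cluster had 0.82 ± 0.46, with 3547 to 8936 CPM in thick fat against 3714 and 3040 CPM in thin fat, and overlapped. The inflammation list had a median of 0.16 over 8, with miR-146a-5p at 548 to 2908 CPM in thick and 711 and 1244 CPM in thin fat.

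Markers of other cell types varied widely between libraries of 1 fat class. The liver miRNA miR-122 was at 20.4, 1489, 11233, 2950.2 and 2829 CPM in thick fat and at 18425 and 399 CPM in thin fat. The gut and liver miRNA miR-192 was at 0 in thick fat replicates 1, 2 and 4, at 7757 and 1018 CPM in replicates 3 and 5, and at 4596 and 362 CPM in thin fat. Thick fat replicate 3 and thin fat replicate 1 were thus high in both. miR-122 had a log2 fold change of -1.34 ± 1.82 that turned to 3.22 without thin fat replicate 1. The endothelial miR-126-3p was at 32843 to 71339 CPM in thick fat and at 36285 and 45709 CPM in thin fat, with the highest value in thick fat replicate 5 and a log2 fold change of 0.09 ± 0.34.

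Summed levels of the marker lists overlapped between thick and thin fat for 7 of the 8 lists, nerve, endothelium, muscle, red blood cell, leukocyte, epithelium and liver. The nerve markers ran from 1351 to 2525 CPM in thick fat and stood at 1978 and 1340.0 CPM in thin fat, with miR-9 a small share of that sum beside miR-128 and miR-7. miR-7, another neuronal miRNA, was at 330 to 600.4 CPM in thick and 641 and 415 CPM in thin fat, with a log2 fold change of -0.12 ± 0.36. The smooth muscle and stroma markers ran from 47115 to 141220 CPM in thick fat and were 202976 and 146195 CPM in thin fat, a sum made up mostly of miR-143-3p and miR-199ab-3p. miR-124a, the defining neuronal miRNA of the nerve list, was counted in no Hampshire library. The part of nerve in the miR-9 difference was not tested.

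Several miRNAs were counted in full in some Hampshire libraries and not at all in others. By a definition chosen after seeing the data, a 0 where at least 100 reads would be expected from the median CPM of the libraries with reads, this held for 21 names. The 5 thick libraries had 6, 2, 11, 7 and 5 such zeros, and the thin libraries 13 and 9. A deeper library reaches 100 expected reads at a lower CPM, so these counts depend on depth and do not compare libraries evenly. Thick fat replicate 2, with 2 such zeros, held 431542 reads, and replicate 3, with 11, held 2315501. miR-145-5p and miR-145-3p, the smooth muscle arms clustered with miR-143, were counted only in thick fat replicates 1 to 3. miR-145-5p was at 2562, 2981 and 2313 CPM there, and at 0 in thick fat replicates 4 and 5 and in both thin libraries. miR-145-3p was at 177, 153 and 179 CPM in the same 3 libraries. Its neighbour miR-143-3p was counted in all 7 libraries and was lower, not higher, in thick fat replicates 1 to 3 than in the 4 libraries at 0 for miR-145.

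For a miRNA at 0 in both thin libraries a fitted fold change is no measure of size. DESeq2 called miR-145-5p with an adjusted p of 3.35e-09, whereas edgeR gave an adjusted p of 0.894. All reads of miR-145-5p came from thick fat replicates 1 to 3. miR-145-5p was counted in all 15 libraries of the other breeds, at 3488 to 10797 CPM when scaled over all 22 libraries. miR-142-5p, a miRNA of blood cells, was at 604, 599 and 341 CPM in thick fat replicates 2, 4 and 5 and at 0 in the other 4 libraries, and miR-142-3p was counted in thick fat replicates 4 and 5 only. miR-199ab-3p and miR-199b-5p, from stromal cells, were at 0 in thick fat replicate 3 alone, where the other libraries had 9895 to 33263 and 2046 to 4691 CPM. miR-574-3p and miR-328 were at 0 in thin fat replicate 1 alone. Without thin fat replicate 2, the only thin library with miR-574-3p reads, edgeR called miR-574-3p (adjusted p = 0.00496).

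miR-200b and miR-429, 2 epithelial miRNAs, were exchanged between libraries by name. All 6 sequences listed in Hampshire under miR-200b are listed under miR-429 too, and no library had reads under both names. These 6 are the only Hampshire sequences listed under 2 names, so the other zeros have no such second listing in the deposited counts. Naming or filtering of reads before that listing was not tested. The most abundant of them is shown because the deposited counts give it both names. Which of the 2 miRNAs it is was not checked against reference sequences. Levels of miR-429 and miR-200b here are therefore those of reads listed under each name.
miR-200b and miR-429: uAAUACUGccugguaaugaugacu
It had 423, 68, 540, 64 and 152 reads as miR-429 in thick fat replicates 1 to 3 and the 2 thin libraries, and 32 and 17 reads as miR-200b in thick fat replicates 4 and 5. As 1 name they summed to 1693, 976, 977, 161 and 73.9 CPM in thick fat and 246 and 515 CPM in thin fat, which overlapped. The log2 fold change was then 1.03 ± 1.17 (edgeR adjusted p = 0.959), and DESeq2, which had called miR-200b with an adjusted p of 2.69e-06, gave 0.852. DESeq2 called 2 names with that sum, miR-9 and miR-145-5p.

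**Figure D3:**
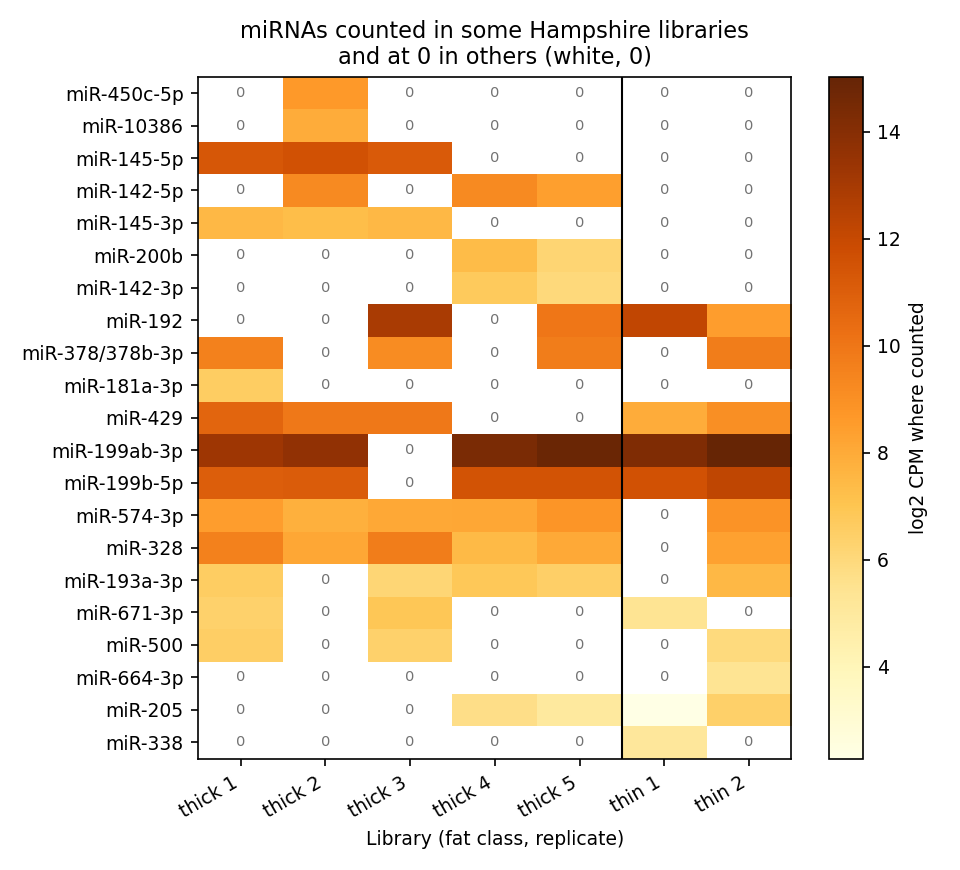
log2 CPM (colour scale) in each Hampshire library of the 21 miRNAs at 0 in at least 1 library where at least 100 reads were expected; white cells marked 0 had no reads, and the vertical line parts thick from thin fat. miR-145-5p and miR-145-3p are filled in thick fat replicates 1 to 3 only, and miR-429 and miR-200b fill different libraries.

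Libraries of 1 fat class did not stand together. The median absolute difference in log2 CPM over the miRNAs counted in both libraries of a pair was 0.29 to 0.70 within thick fat (median 0.50 over 10 pairs), 0.40 to 0.77 between thick and thin fat (median 0.56 over 10 pairs), and 0.56 between the 2 thin libraries. The closest pairs were thick fat replicates 1 and 3, at 0.29, and replicates 4 and 5, at 0.32. Thick fat replicate 5 and thin fat replicate 2 followed at 0.40, closer than the thin libraries were to each other. Thick fat replicates 1 and 3 also tended to be higher in miRNAs rich in G and C, with a correlation of 0.39 and 0.38 across 120 miRNAs, and replicates 4 and 5 lower, with -0.36 and -0.35. The thin libraries had -0.19 and -0.14, and the fitted fold change had 0.34. These correlations are descriptions across miRNAs of the same libraries, and the part of base composition in any single difference was not tested. Thick fat replicates 1 and 3 were the highest for miR-193a-5p and let-7d-3p, and those 2 with replicate 2 were the libraries with miR-145 reads.

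**Figure D4:**
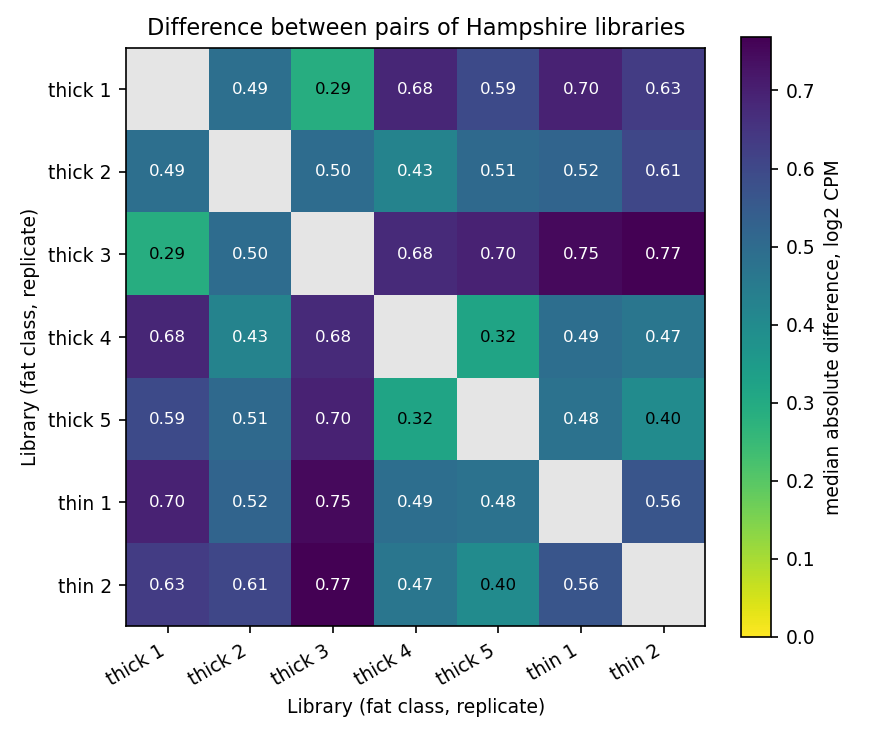
Median absolute difference in log2 CPM for each pair of the 7 Hampshire libraries over the miRNAs counted in both; a darker square is a larger difference. Thick fat replicates 1 and 3 form the closest pair at 0.29, and thick fat replicate 3 and thin fat replicate 2 the farthest at 0.77.

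The same comparison was made for single sequences, the unit of the deposited table. edgeR called 0 of 2593 sequences (0%), and 117 (4.51%) had an unadjusted p under 0.05. Of these 117, 57 were sequences of miR-143-3p, all lower in thick fat. Over the 171 miR-143-3p sequences tested, 170 had a negative log2 fold change and the median was -1.03. DESeq2 called 4 sequences, 1 of miR-145-5p, 2 of miR-143-3p and 1 of miR-27b-3p, and gave no adjusted p for 2413 of the 2593. The printed miR-143-3p sequence had -1.05 ± 0.31 and the form 1 base longer -0.87 ± 0.31. Sequences of 1 miRNA are not independent of each other. miR-27b-3p and miR-100 gave 7 and 4 more sequences, all lower, and miR-193a-5p and miR-103 gave 4 each, all higher.

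In the authors' deposited table, 1 of 5339 sequences with an adjusted p (0.0187%) was called, and it is the miR-145-5p sequence printed above. The authors' deposited table gives it a log2 fold change of -26.2 ± 4.08, thin minus thick, with an adjusted p of 7.01e-07. Since both thin libraries are at 0, that value cannot be read as a fold. That sequence had 2172, 821 and 4572 reads in thick fat replicates 1 to 3 and 0 in the other 4 libraries. The next smallest adjusted p in the authors' deposited table was 0.973.

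Measures of the libraries themselves were compared by an exact two-sided permutation test, where 5 against 2 libraries cannot give a p under 0.0952. None of 9 measures had an exact p under 0.190. Reads equal to the most abundant sequence of their name made up 56.9% ± 1.34 (SD, n = 5) in thick fat and 55.3% and 57.8% in thin fat. Reads trimmed at the 3′ end made up 9.27% ± 0.65 (SD, n = 5) and 9.81% and 7.73%, and reads extended there 11.4% ± 0.626 (SD, n = 5) and 12.7% and 11.5%. Reads had a mean length of 21.8 ± 0.0454 nt (SD, n = 5) in thick fat, and of 21.7 and 21.8 nt in the thin libraries.

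The ratio of the 2 arms of a hairpin does not depend on the scaling of libraries. Among 15 pairs of arms counted in all 7 libraries, 2 (13.3%) had a ratio above both thin libraries in all 5 thick libraries and 0 (0%) had one below both. The endothelial miR-126 had a log2 ratio of 3p to 5p between 6.83 and 7.20 in the thick libraries (6.98 ± 0.14, SD, n = 5), and of 6.45 and 6.16 in thin fat. miR-140, known from cartilage and also found in fat, had 3.23, 3.16, 3.29, 3.14 and 3.00 in thick fat and 2.63 and 2.40 in thin fat. Both thin libraries lay below every thick one for both ratios, with thin fat replicate 2 the lowest. These pairs were named after their values were seen, and no test was made.

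Whether the Hampshire difference departs from that of the other breeds was tested over all 22 libraries, against the mean difference of Pietrain (4 thick, 3 thin) and Large White (4 thick, 4 thin). edgeR called 0 of 206 names (0%), with 16 (7.77%) at an unadjusted p under 0.05. miR-9 was also lower in thick fat in Pietrain, at -0.57 ± 0.36, and in Large White, at -0.63 ± 0.34, and passed in neither (edgeR adjusted p = 0.993 and 0.958). The difference of differences for miR-9 was -0.77 ± 0.43 (95% interval -1.68 to 0.14, edgeR adjusted p = 0.590). Scaled over all 22 libraries, miR-9 had a mean level of 83.7 ± 6.00 CPM (SD, n = 5) in thick Hampshire fat, where the 2 thin libraries had 282 and 159 CPM. In Pietrain the means were 49.5 ± 11.7 CPM (SD, n = 4) for thick and 75.3 ± 29.6 CPM (SD, n = 3) for thin fat. The thick Hampshire libraries of miR-9 lay above all 4 thick Pietrain libraries.

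The other leading miRNAs had small or opposite differences elsewhere. All leading miRNAs, miR-9 included, were chosen by their p in the Hampshire fit, and the difference of differences uses the same Hampshire libraries. Larger values in Hampshire follow in part from that choice. miR-486 had -0.51 ± 0.33 in Pietrain and 0.23 ± 0.28 in Large White, and a difference of differences of 1.35 ± 0.47 (edgeR adjusted p = 0.579). miR-24-3p had 0.12 ± 0.16 and 0.18 ± 0.15, and -0.56 ± 0.20 for the difference (edgeR adjusted p = 0.579). miR-143-3p had -0.03 ± 0.36 and 0.51 ± 0.42, and -1.25 ± 0.56 for the difference (edgeR adjusted p = 0.579). miR-193a-5p had -0.24 ± 0.46 and 0.15 ± 0.26, and miR-100 had 0.26 ± 0.38 and 0.29 ± 0.25. DESeq2 called 6 names in this comparison, miR-24-3p, miR-210, miR-142-3p, miR-450c-5p and both arms of miR-145. All of them but miR-24-3p are at 0 in at least 4 Hampshire libraries. In Hampshire, miR-210 was counted in thick fat replicate 3 only, at 42.5 CPM. The smallest adjusted p of this test, 0.203 by edgeR, belonged to both arms of miR-145, at 0 in 4 Hampshire libraries and in no other.

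The Large White values carry a limit. When the deposited comparisons were refitted with DESeq2 by the labels, the fold changes matched those in the authors' deposited table in Hampshire (r = 1 across 5391 sequences) and in Pietrain (r = 1 across 7039), but not in Large White (r = 0.652 across 6796). With Pietrain alone as the other breed, chosen after seeing the data, edgeR called 0 of 206 names, and miR-486 had 1.73 ± 0.53 (edgeR adjusted p = 0.297). miR-9 then had -0.79 ± 0.50 (edgeR adjusted p = 0.682).

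**Figure D5:**
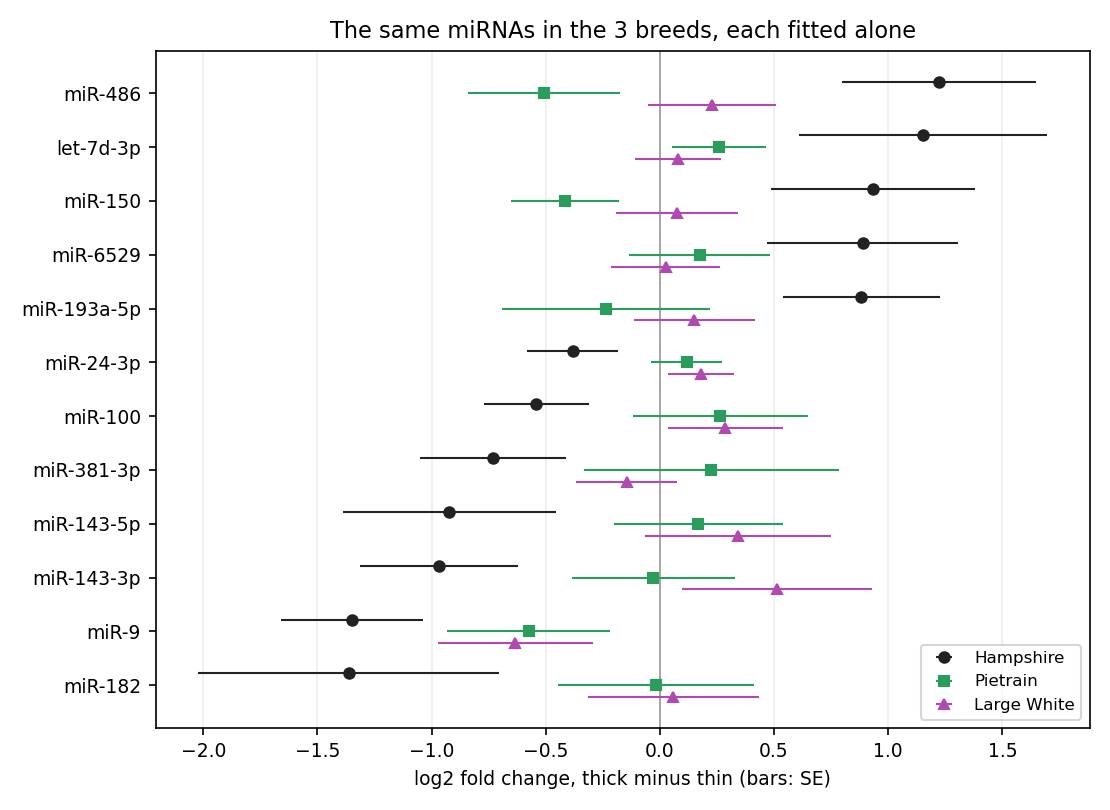
log2 fold change, thick minus thin, of 12 leading miRNAs in Hampshire (circles), Pietrain (squares) and Large White (triangles), each breed fitted alone; bars are standard errors. Only miR-9 lies on the lower side in all 3 breeds by more than 0.5 log2 units among those shown.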

How the data were processed

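Small RNA libraries were made with a NEBNext kit, per the labels' protocols. DESeq2, FastQC, bcl2fastq and the assembly Sscrofa10.2 are named in the submitters' processing notes. No trimmer, aligner or miRNA release is given in the sources used here. The authors deposited 1 table of raw read counts per sequence and breed, with a miRNA name for all but 54 of 5391 Hampshire sequences (0.0741% of reads, left out). Their comparison of fat classes, per the file headers, lists for every sequence a mean signal, a log2 fold change with standard error, the score of the test and raw and adjusted p-values. Read against the counts, its fold changes run thin minus thick.

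Counts were summed by miRNA name. Names were tested in edgeR 4.0.16 (robust quasi-likelihood fit, limma 3.58.1, R 4.3.3) with TMM, a count filter of 10, Benjamini-Hochberg adjustment and a threshold of 0.05. Standard errors were taken as the fold change over the root of F. Alternatives were other scalings and filters, DESeq2 1.42.0, limma-voom, other sums of sequences, other sets of libraries and each library left out. The fits were checked on simulated counts. Exact tests used SciPy 1.17.1.

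Named miRNAs were the 8 of smallest p in each direction, the 10 most abundant and the 2 most abundant of each of 19 lists, 43 in all. Members and lists were chosen with earlier results of these data known. Chi-square over its degrees of freedom was at least 116 in the 11 pairs of libraries of 1 Hampshire group, above sampling noise. Reads carry no molecular identifiers, so they are not independent molecules. No RefSeq miRNA table was used. Sequences are those of the deposited table.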

Additional observations from a re-analysis of the deposited data

Results flagged for a closer look

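Each of 43 miRNAs and 9 library measures was screened in the 5 thick libraries for a single value far from the rest, by Dixon's 95% limit, which chance passes in about 1 of 20 groups. Of these 52 screens, 5 passed. miR-126-3p was at 71339 CPM and miR-126-5p at 628 CPM in thick fat replicate 5, each the highest thick library. The mean read length in the same library was 21.7332 nt, the lowest of thick fat. miR-122 at 11233 CPM and miR-192 at 7757 CPM were highest in thick fat replicate 3. Both arms of miR-126 were high together in thick fat replicate 5, and miR-122 and miR-192 together in replicate 3.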

How the results depend on the processing

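Precision was limited by the 2 thin libraries, by the depth of 431542 reads in thick fat replicate 2 and by zeros, which for 1 sequence can stand for up to 5 reads and for a name for more. No paired analysis was possible because no label pairs thick with thin libraries, so no replicate block was fitted.

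Against 0 called by edgeR, DESeq2 called 3 miRNAs (2, miR-9 and miR-145-5p, with miR-200b and miR-429 summed), 4 sequences (of miR-145-5p, miR-143-3p and miR-27b-3p, with 2413 of 2593 given no adjusted p) and 6 miRNAs, miR-24-3p among them, in the comparison of breeds, where upper quartile scaling called 1, miR-24-3p. Leaving out each library gave 0 to 1 miRNA, 0 to 2 sequences and 0 to 2 miRNAs in the comparison of breeds. The exceptions were thin fat replicate 2 (miR-574-3p, 2 of its sequences, and miR-328 between breeds), thin fat replicate 1 (let-7a and let-7d-5p between breeds) and thick fat replicates 4 and 5 (both arms of miR-145 between breeds, with either left out). The median log2 fold change of all names moved from 0.02 to -0.21 with upper quartile scaling and to 0.19 with library totals. In the comparison of breeds, upper quartile scaling moved the median of all 206 names from 0.05 to -0.43. There 39 names had an edgeR unadjusted p under 0.05, against 16 in the main fit, so its call of miR-24-3p came with a shift of all names. The cause was not tested.

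Of 43 named miRNAs, 23 kept their direction under every alternative that gave a value, among them miR-9 (-1.67 to -0.94), miR-143-3p, miR-100, miR-486 and miR-193a-5p. The other 20 changed direction under at least 1. Upper quartile scaling gave -0.18 for miR-125b, -0.097 for miR-126-3p, -0.21 for miR-20a, -0.013 for miR-21, -0.17 for miR-26a, -0.023 for miR-30a-5p and -0.085 for miR-30c-5p. Library totals gave 0.11 for miR-10b and 0.040 for miR-7. The most abundant sequence alone gave 0.00062 for miR-10b and -0.051 for miR-125b. limma-voom gave -0.0067 for miR-126-3p, -0.0038 for miR-26a and -2.23 for miR-429. The fit on all 22 libraries gave -0.0026 for miR-26a, and leaving out names with a 0 gave -0.035 for miR-20a and -0.030 for miR-26a. Without thick fat replicates 1 to 3, chosen after seeing the data, the values were 0.072 for let-7i-5p, -0.29 for miR-125b, -0.36 for miR-128, -0.086 for miR-30a-5p, -0.17 for miR-30c-5p, 0.67 for miR-451 and 0.069 for miR-7. The -11.7 for miR-429 there is no measure of size, since both thick libraries left are at 0 with their reads listed as miR-200b. With both names summed, these libraries had 161 and 73.9 CPM, still below thin fat at 246 and 515 CPM.

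As each library was left out, values ran from -0.31 to 1.46 for let-7a, -0.65 to 0.19 for let-7i-5p, -0.16 to 0.012 for miR-10b, -2.40 to 3.22 for miR-122, -0.040 to 0.16 for miR-125b, -0.16 to 0.26 for miR-126-3p, -0.057 to 0.91 for miR-146a-5p, -0.46 to 0.20 for miR-148a-3p and -3.27 to 2.28 for miR-192. They ran from -0.38 to 0.57 for miR-20a, -0.13 to 0.38 for miR-21, -0.062 to 0.093 for miR-26a, -0.055 to 0.67 for miR-30a-5p, -4.35 to 6.22 for miR-338-5p, -0.020 to 0.82 for miR-378, -0.95 to 1.38 for miR-451 and -0.39 to 0.23 for miR-7. With 1 thin library left, it is assumed to vary like the thick ones. Thick minus thin differences of library measures ran from -9.5 to 1.5 names counted and, in percentage points of reads, from -0.95 to 1.52 for the most abundant sequence, -0.54 to 1.53 for trimmed ends, -0.28 to 0.23 for shifted starts and -0.57 to 0.17 for 1 changed base.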
